A study of Mus musculus with 16 samples.

Results

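Macrophages labelled as from visceral fat were compared with those labelled as from subcutaneous fat, in mice described as lacking Sucnr1 in myeloid cells. The comparison used 8 of the 16 expression arrays of the study. The members were taken by their sample labels alone: 4 arrays of knockout visceral adipose tissue (KO VAT) and 4 of knockout subcutaneous adipose tissue (KO SAT). The other 8 arrays, 4 of wild-type visceral (WT VAT) and 4 of wild-type subcutaneous tissue (WT SAT), entered the shared estimate of spread and 1 comparison between the genotypes. The series design gives the knockout as LysM-Sucnr1-/-, in which Cre under the lysozyme M promoter of the myeloid lineage deletes a floxed Sucnr1, and the animals labelled WT as Sucnr1 flox/flox. The titles call the KO samples treated and the WT samples untreated but name no agent, and the letters NCD, carried by all 16 samples, are not spelled out. All mice were 19 to 21 weeks old. Each array holds RNA of 300000 cells from a numbered pool, amplified over 24 cycles. Cells were taken from collagenase-digested fat with CD11b beads, although another label names the surface marker that Adgre1 encodes. Each group has pools 1 and 2 from day 1 and pools 3 and 4 from day 2. How many mice a pool holds, and whether pools of 1 group hold different mice, is not stated, so that p-values measure the spread between pools.

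Adipose tissue macrophages take up lipid and debris, present antigen and release chemokines that draw other leukocytes into fat, and their number and state differ between visceral and subcutaneous depots. Sucnr1 is a cell surface receptor for extracellular succinate, a citric acid cycle metabolite that stressed cells release. Lysozyme M is itself a macrophage product, encoded by Lyz2, the locus that carries the Cre in this type of mouse. The series title ties Sucnr1 signalling to alternative activation, the program that interleukin-4 drives in macrophages.

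Values are log2 expression values, and every difference is KO VAT minus KO SAT in log2 units with the standard error (SE) of the fit, so that a positive difference is higher in KO VAT. A gene passed at a limma Benjamini-Hochberg adjusted p under 0.05 over 17097 genes. The level read as background was 4.78, the 95th percentile of 41 olfactory receptor genes. Where a group averaged under it the size of a difference is not exact, which holds in KO SAT for Aldh1a1, Heph, Icos, Idi1, Il33, Krt14, Perp, Prg4, Prkg2 and Pvalb, in KO VAT for Hpgd, Krt18, Lcn5 and the named seminal vesicle genes other than Svs5, and in both for Cpa3, En1, Irx5 and Tcf21. Sucnr1 itself read 3.59, 3.58, 3.53 and 3.41 in KO VAT pools 1 to 4, against 3.65, 3.58, 3.53 and 3.44 in KO SAT, and the WT groups ran from 3.35 to 3.61. Its probe set was under background in all 4 groups, so it does not check the genotype labels. Values spread alike on the arrays of both KO groups, with an interquartile range of 2.49 ± 0.11 in KO VAT and 2.52 ± 0.12 in KO SAT (SD, 4 arrays each), and less widely in WT VAT, at 2.30 ± 0.26, and WT SAT, at 2.20 ± 0.08.

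The depot labels of the KO arrays go against the genes that mark position in the body. Of 6 genes known from subcutaneous fat, 5 were higher in KO VAT and 0 lower, with a median difference of 0.62 against 0.00 over all genes, while 1.92% of all genes passed higher and 2.39% passed lower. Of 7 genes known from intra-abdominal fat, 0 were higher and 2 lower in KO VAT, with a median of -0.22, and 5 of the 7 averaged under background in both KO groups. The depot names below are therefore those of the labels, and each direction holds for the arrays labelled KO VAT against those labelled KO SAT.

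Tbx15, a T-box factor of subcutaneous preadipocytes, read 5.71, 5.67, 5.86 and 5.77 in KO VAT, against 5.35, 5.31, 5.34 and 5.14 in KO SAT. The groups did not overlap, with a difference of 0.47 ± 0.10 (adjusted p = 0.0147), but the call was lost without KO VAT pool 3 or 4 or KO SAT pool 2 or 4 (adjusted p 0.0509 to 0.0593). Hoxc10, a posterior homeobox gene, read 6.63, 6.13, 7.17 and 7.61 in KO VAT, against 5.12, 5.43, 5.49 and 5.05 in KO SAT. All 4 KO VAT pools were higher, the day 2 pools most of all (1.61 ± 0.30, adjusted p = 0.00509). Shox2 and En1, homeobox genes of limb and body wall, differed by 0.58 ± 0.11 and 0.65 ± 0.13 (adjusted p = 0.00553 and 0.00801). Sfrp2, a secreted Wnt modulator of subcutaneous stroma, read 9.57, 9.37, 9.90 and 9.92 in KO VAT, against 7.97, 7.64, 7.09 and 6.86 in KO SAT. That is a gap of 2.30 ± 0.24 with no overlap (adjusted p = 3.4e-05). Hoxc9 was higher in 4 of 4 KO VAT pools but did not pass (0.32 ± 0.13, adjusted p = 0.223), although it did with the 8 KO arrays alone in the fit (adjusted p = 0.0123).

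On the intra-abdominal side the values were low. Tcf21, a helix-loop-helix factor of visceral stroma, read 3.6, 3.76, 3.72 and 3.51 in KO VAT, against 4.13, 3.95, 4.18 and 4.05 in KO SAT. Hoxc8 read 5.01, 4.94, 5.46 and 5.55 in KO VAT, against 5.40, 5.41, 5.87 and 5.97 in KO SAT, overlapping across days but lower within each. Tcf21 lay under background throughout (-0.43 ± 0.09, adjusted p = 0.0148). Both calls were lost with the pool number as a block (adjusted p = 0.0711 for Tcf21 and 0.0579 for Hoxc8). Hoxc8 (-0.42 ± 0.11, adjusted p = 0.0403) also failed without any 1 of the 8 KO arrays, and Tcf21 without KO VAT pool 4 or KO SAT pool 1 or 3 (adjusted p 0.055 to 0.0652).

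Other positional genes, mostly homeobox genes, did not move as a whole, with 7 of 33 higher and 1 lower in KO VAT at a median of -0.01. Of the 33, 18 had a negative and 15 a positive difference, and 13 averaged under background in both KO groups. Emx2, a homeobox factor of the urogenital tract and forebrain, read 8.47, 8.56, 8.67 and 8.28 in KO VAT, against 5.36, 5.36, 5.19 and 5.04 in KO SAT. The lowest KO VAT pool stood far above the highest KO SAT pool, a 9.57-fold difference (3.26 ± 0.12, adjusted p = 9.24e-11). Irx2 and Irx5, of the Iroquois family of patterning factors, differed by 1.40 ± 0.22 and 0.95 ± 0.15 (adjusted p = 0.00145 for each), with both KO groups under background for Irx5.

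Secretory genes of the seminal vesicle, a gland that lies beside the epididymal fat pad of male mice, marked the KO SAT arrays. Of 11 measured members 10 were lower in KO VAT, with a median difference of -4.38. The same 10 of 11 had groups that did not overlap. Of all genes, 5.03% had all 4 KO VAT arrays below all 4 KO SAT arrays. Like all gene lists here, this one was written with earlier results of these data known, so its count is not an independent test. Svs4, a seminal vesicle secretory protein, read 3.69, 3.71, 3.81 and 3.82 in KO VAT, against 11.59, 11.78, 11.36 and 11.04 in KO SAT. The KO VAT pools were under background and the KO SAT pools among the bright values of these arrays (-7.68 ± 0.52, adjusted p = 3.17e-07). Svs2, a major protein of the copulatory plug, read 3.57, 3.77, 3.63 and 3.63 in KO VAT, against 10.17, 10.04, 9.74 and 9.31 in KO SAT (-6.16 ± 0.19, adjusted p = 1.56e-11). Svs6 differed by -6.35 ± 0.24, and Svs3a and Svs3b, paralogs so alike that their probe sets may share signal, by -6.06 ± 0.12 and -4.16 ± 0.10. With KO VAT under background for each of them, the size of these differences is not exact.

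Svs5 was the one of these 10 above background in both groups, at 8.10, 8.44, 7.93 and 8.12 in KO VAT against 11.76, 11.72, 11.19 and 10.78 in KO SAT (-3.21 ± 0.19, adjusted p = 8.25e-08). Pate4, Pate14 and Sva, small secreted proteins of male accessory glands, Ceacam10, of the carcinoembryonic antigen family, and Spink1, a trypsin inhibitor, differed by -3.45 to -5.31. Lcn5, a lipocalin of the epididymis, read 4.18, 4.32, 4.09 and 4.04 in KO VAT, against 7.10, 4.69, 8.68 and 8.26 in KO SAT. KO SAT pool 2 was under background with the KO VAT pools, and the other 3 KO SAT pools were high (-3.02 ± 0.58, adjusted p = 0.00682). Summed over the seminal vesicle list on the linear scale, the signal was 0.374 to 0.487 in KO VAT and 6.93 to 11.6 in KO SAT (units of 1000).

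Skeletal muscle genes ran towards KO VAT. Of 18 members 7 were higher and 0 lower, with a median of 0.49. Tnnc2, the fast muscle troponin C, read 6.95, 7.58, 7.37 and 8.06 in KO VAT, against 5.44, 5.94, 5.15 and 4.92 in KO SAT, with no overlap (2.13 ± 0.30, adjusted p = 0.00059). Atp2a1, the calcium pump of the sarcoplasmic reticulum, differed by 2.13 ± 0.20 (adjusted p = 1.06e-05), and Pvalb and Acta1 by 1.66 ± 0.23 and 1.28 ± 0.24 (adjusted p = 0.000614 and 0.00573). In WT these muscle genes ran the other way: 0 of 18 were higher and 14 lower in WT VAT, where 1.52% of all genes passed higher and 1.32% lower.

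**Figure D1:**
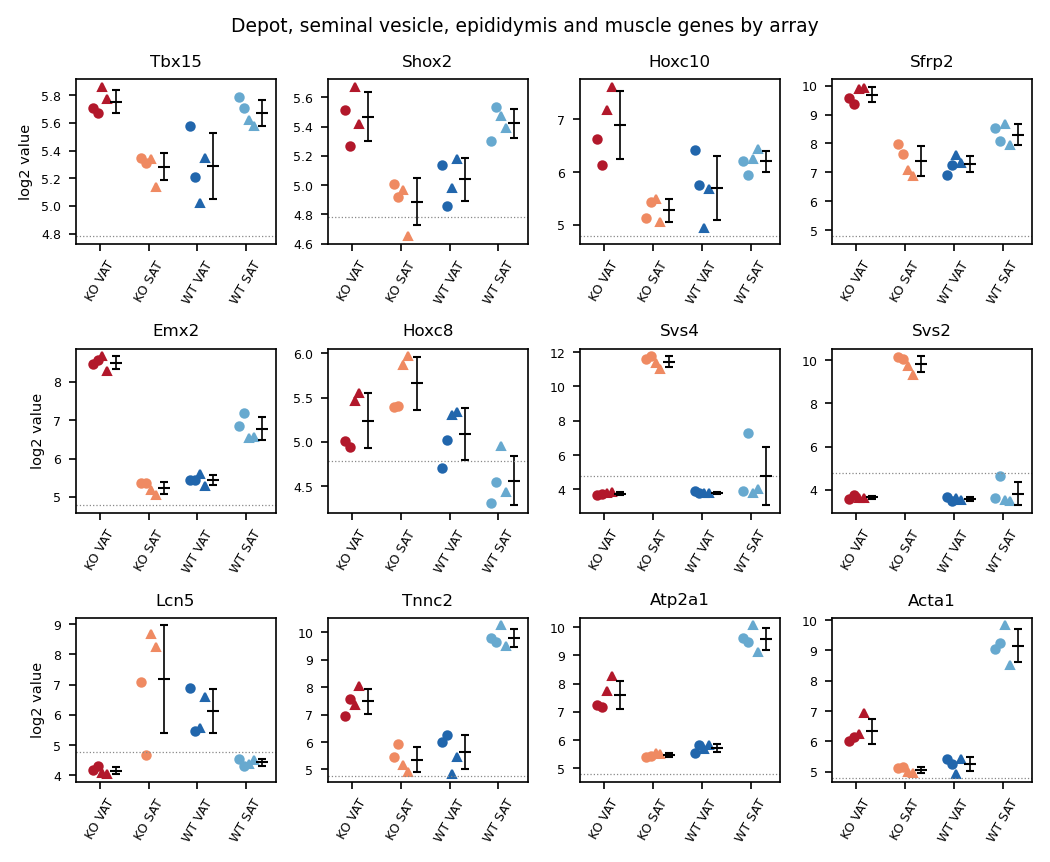
Log2 values of genes of position, seminal vesicle, epididymis and muscle on each array, by group; circles are day 1 and triangles day 2 pools, bars the mean and SD of 4 arrays, and the dotted line the background level of 4.78. Tbx15, Shox2, Hoxc10, Sfrp2 and Emx2 stand higher in KO VAT than in KO SAT and Svs4 and Svs2 lower, while the muscle genes Tnnc2, Atp2a1 and Acta1 are highest in WT SAT.

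Over all genes, 738 of 17097 (4.32%) differed between KO VAT and KO SAT, 329 higher and 409 lower. At least 2-fold differences among them numbered 104 higher and 54 lower. With the 8 KO arrays alone in the fit 2047 genes passed, and without KO SAT pool 2 or 3 the count was 461 or 468. Without the day term 422 passed, and of 136 genes examined 26 lost their call (adjusted p 0.0537 to 0.462). Among them were Cd14, Spi1, Adgre1, Fcgr1 and Fcer1g of macrophage identity, Ifit1, Mx1, Herc6, Parp14, Gbp2, Tgtp1 and Irgm2 of the interferon response, and Ccl2, H2-Aa, H2-Ab1, Nlrc5, Cd274, Acod1 and Il6. On day 1 or day 2 alone, with 2 pools a group, 49 and 58 of the 136 lost it. Arrays of 1 group correlated at 0.988 to 0.995 in KO VAT and 0.989 to 0.996 in KO SAT. These are across 45141 probe sets, which are not independent replicates. On the first principal component of the 8 arrays, with 47.2% of the variance, KO VAT lay at -21.56 to -15.81 and KO SAT at 15.52 to 22.62. The second, with 28.8%, separated the days.

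**Figure D2:**
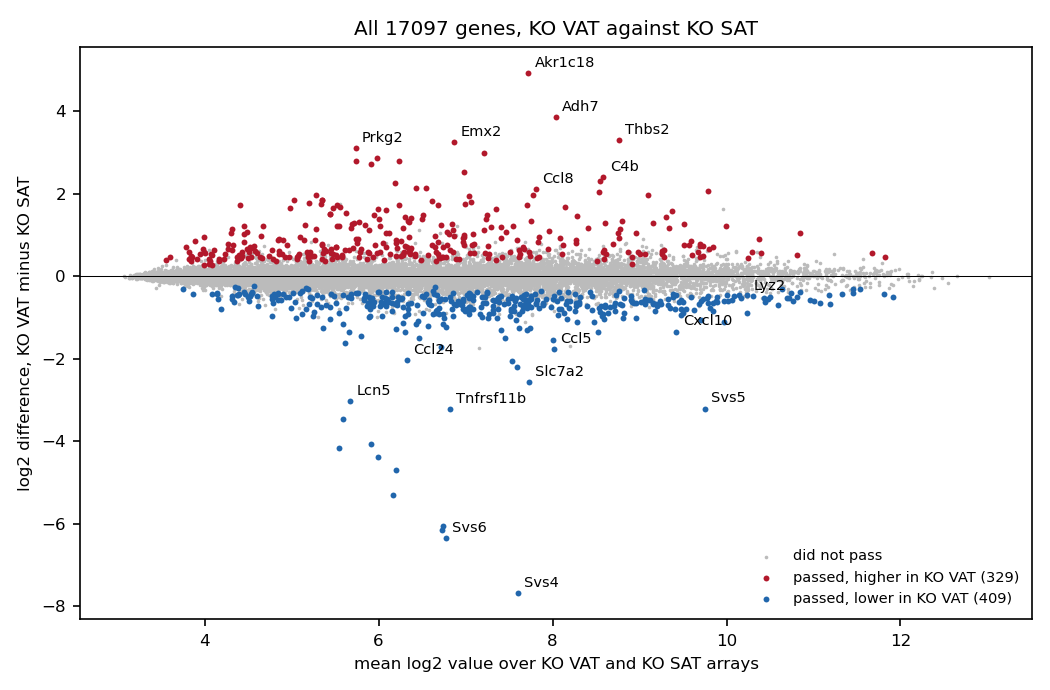
Difference between KO VAT and KO SAT (log2 units, vertical) against the mean log2 value over the 8 arrays (horizontal) for 17097 genes; red genes passed higher in KO VAT (329), blue lower (409). The seminal vesicle genes Svs4 and Svs6 lie farthest below 0, and Akr1c18 and Adh7 farthest above.

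Genes that define macrophages were present in both groups and lower in KO VAT. All 19 measured identity genes averaged above background. Of these, 9 were lower and 0 higher, with a median difference of -0.52, and 18 of 19 had a negative difference where 49.1% of all genes did. The count was 15 with the 8 KO arrays alone in the fit, 1 without the day term, 2 and 0 on day 1 and day 2 alone, 4 with the pool number as a block, and 4 to 8 with 1 KO array left out (4 without KO VAT pool 2 or KO SAT pool 2 or 3, and 5 without KO VAT pool 4). Cd68, a lysosomal membrane protein of macrophages, read 10.64, 10.45, 11.07 and 10.85 in KO VAT, against 11.23, 11.38, 11.53 and 11.41 in KO SAT. No KO VAT pool reached the lowest KO SAT pool (-0.64 ± 0.10, adjusted p = 0.00195). Cd14, the lipopolysaccharide co-receptor, read 7.03, 6.55, 7.35 and 7.21 in KO VAT, against 7.52, 7.87, 8.33 and 8.22 in KO SAT (-0.95 ± 0.18, adjusted p = 0.00582). Spi1, the PU.1 factor that specifies the myeloid lineage, differed by -0.67 ± 0.13 (adjusted p = 0.00555).

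Adgre1, the adhesion receptor used most widely to mark mouse macrophages, read 8.04, 7.65, 8.42 and 8.31 in KO VAT, against 8.63, 9.01, 9.22 and 9.03 in KO SAT. Its groups did not overlap (-0.86 ± 0.21, adjusted p = 0.0256), but it missed the threshold with the block (adjusted p = 0.052) and without KO VAT pool 1, 2 or 4 or KO SAT pool 2, 3 or 4 (adjusted p 0.0565 to 0.106). Fcgr1, the high-affinity IgG receptor, differed by -0.69 ± 0.14 (adjusted p = 0.0117) and missed it without KO VAT pool 2 or KO SAT pool 2 or 3 (adjusted p 0.0509 to 0.0518). Fcer1g, the signalling chain shared by such receptors, differed by -0.67 ± 0.13 (adjusted p = 0.00876, and 0.0516 with the block). Lyz2 overlapped between the groups, at 9.72, 9.71, 10.36 and 10.19 in KO VAT against 10.01, 10.57, 10.75 and 10.59 in KO SAT. It did not pass (-0.49 ± 0.14, adjusted p = 0.072), but it passed without KO SAT pool 1 (adjusted p = 0.0282), with the 8 KO arrays alone in the fit (adjusted p = 0.0194), and with array weights or the interquartile range as a term (adjusted p = 0.0089 and 0.0218).

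The summed signal of the 19 identity genes was 9.34 to 14.2 in KO VAT and 13.5 to 18.4 in KO SAT, in the same units. In such bulk samples, fewer macrophages and less of these RNAs per macrophage cannot be told apart. The macrophage gene groups described next were read on the same arrays and ran in both directions. The part of the lower identity genes in those results was not tested.

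Genes induced by type I interferon were lower in KO VAT as a group. Of 25 measured members 13 were lower and 0 higher, with a median of -0.48, and all 25 had a negative difference. The count was 23 with the 8 KO arrays alone in the fit, 9 to 12 with 1 KO array left out, 4 without the day term, and 1 on each day alone. Short stretches that match the element bound by interferon-activated factors lay upstream of several of them. The element was searched as GAAA, any 2 bases and GAAA again, which reads TTTC, any 2 bases and TTTC on the other strand, in RefSeq windows of 300 bases that end shortly after each gene's start (GRCm38.p6). A window with it belonged to 3.99% of the 27025 genes that had windows, and to 8 of 17 interferon response genes, 3 of the 8 that were lower and 5 of the 9 that did not pass. For the GTPases described after these, the counts were 8 of 11 genes, 3 of 5 lower and 5 of 6 not passed. The promoters of 5 genes that were lower follow, 5′ to 3′ on the gene's strand with the matches in capitals, because they show how close to the start these lie:
Rsad2, chr12:26456403-26456702, minus strand: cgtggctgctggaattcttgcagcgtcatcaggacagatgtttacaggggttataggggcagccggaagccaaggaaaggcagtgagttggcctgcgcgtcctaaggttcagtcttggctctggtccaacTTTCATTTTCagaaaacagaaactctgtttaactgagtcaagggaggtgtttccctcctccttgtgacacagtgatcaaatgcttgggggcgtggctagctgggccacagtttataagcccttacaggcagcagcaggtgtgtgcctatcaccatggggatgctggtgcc
Ifit1, chr19:34640639-34640938, plus strand: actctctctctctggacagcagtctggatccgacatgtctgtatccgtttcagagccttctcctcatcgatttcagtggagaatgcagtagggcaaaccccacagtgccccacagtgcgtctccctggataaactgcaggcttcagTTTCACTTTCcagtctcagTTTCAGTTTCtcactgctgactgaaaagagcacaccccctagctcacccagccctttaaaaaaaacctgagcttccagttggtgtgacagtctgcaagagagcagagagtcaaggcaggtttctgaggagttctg
Ifit3, chr19:34583279-34583578, plus strand: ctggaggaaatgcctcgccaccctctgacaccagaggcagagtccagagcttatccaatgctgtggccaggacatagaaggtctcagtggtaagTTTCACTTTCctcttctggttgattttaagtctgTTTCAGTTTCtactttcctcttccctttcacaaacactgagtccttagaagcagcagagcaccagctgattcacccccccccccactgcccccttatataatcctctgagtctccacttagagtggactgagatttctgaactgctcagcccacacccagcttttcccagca
Gbp2, chr3:142620413-142620712, plus strand: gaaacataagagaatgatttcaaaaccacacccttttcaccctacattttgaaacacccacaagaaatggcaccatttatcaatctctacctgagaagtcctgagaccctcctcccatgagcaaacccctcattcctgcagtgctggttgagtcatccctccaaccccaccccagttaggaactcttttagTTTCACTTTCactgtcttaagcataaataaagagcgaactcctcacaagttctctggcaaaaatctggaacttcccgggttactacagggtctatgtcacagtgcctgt
Tgtp1, chr11:48992197-48992496, minus strand: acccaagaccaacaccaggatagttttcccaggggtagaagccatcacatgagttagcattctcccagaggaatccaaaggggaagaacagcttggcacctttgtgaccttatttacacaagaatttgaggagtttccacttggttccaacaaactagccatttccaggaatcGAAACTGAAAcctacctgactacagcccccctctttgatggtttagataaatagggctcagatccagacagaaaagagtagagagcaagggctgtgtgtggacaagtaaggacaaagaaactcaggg
Ifit1 and Ifit3 hold a pair of matches each and the other 3 genes 1 each. A match of these letters is not evidence of binding.

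Rsad2, viperin, which blocks replication of many viruses, read 11.48, 11.59, 11.82 and 11.75 in KO VAT, against 11.95, 12.22, 12.23 and 12.27 in KO SAT. Every KO VAT pool was below every KO SAT pool (-0.51 ± 0.09, adjusted p = 0.00247). Ifit1, which binds viral RNA caps, read 9.36, 9.39, 9.78 and 9.58 in KO VAT, against 9.86, 10.20, 10.32 and 10.29 in KO SAT (-0.64 ± 0.13, adjusted p = 0.0102). Ifit3, its partner protein, which has a close paralog, differed by -0.40 ± 0.08 (adjusted p = 0.00645). Cmpk2, a nucleotide kinase encoded beside Rsad2, read 8.35, 8.00, 8.61 and 8.23 in KO VAT, against 9.10, 9.27, 9.54 and 9.37 in KO SAT. It had the greatest fall among the 13, 2.03-fold, without overlap (-1.02 ± 0.16, adjusted p = 0.00169). Mx1, an antiviral dynamin-like GTPase, and Herc6, the ligase that attaches the ubiquitin-like protein Isg15 in mice, each differed by -0.84 (SE 0.16 and 0.15, adjusted p = 0.00565 and 0.00403). Parp14, an ADP-ribosyltransferase, differed by -0.48 ± 0.09 (adjusted p = 0.00578).

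Among GTPases and regulators induced by interferon gamma, 5 of 14 were lower and 0 higher, with a median of -0.53, and 1 was lower without the day term. Irf1, a transcription factor at the head of this response, read 7.80, 7.69, 7.88 and 7.93 in KO VAT, against 8.30, 8.52, 8.54 and 8.59 in KO SAT. The pools of a group lay close together and the groups apart (-0.67 ± 0.10, adjusted p = 0.00104). Gbp2, a guanylate-binding protein that attacks vacuoles of intracellular parasites, read 7.78, 7.57, 8.24 and 7.77 in KO VAT, against 8.33, 8.61, 9.0 and 8.78 in KO SAT (-0.84 ± 0.16, adjusted p = 0.00729). Tgtp1, an immunity-related GTPase with the near-identical paralog Tgtp2, read 6.39, 6.41, 7.52 and 7.17 in KO VAT, against 7.18, 7.69, 8.32 and 7.91 in KO SAT. The day 2 pools were higher than the day 1 pools in both groups, so the groups overlapped, but KO VAT was lower within each day (-0.90 ± 0.19, adjusted p = 0.0103). Irgm2, a regulator of that GTPase family, differed by -0.60 ± 0.10 (adjusted p = 0.00312).

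Chemokines split. Of 12 CXC chemokines 2 were higher and 3 lower, and of 17 CC chemokines 1 was higher and 4 lower, with medians of -0.10 and -0.24. Cxcl10, which recruits activated T cells through Cxcr3, read 8.66, 8.37, 9.14 and 8.86 in KO VAT, against 9.98, 9.84, 10.31 and 10.25 in KO SAT. It was 2.53-fold lower with a clear gap (-1.34 ± 0.14, adjusted p = 2.93e-05). Ccl5, which draws T cells and monocytes, read 6.52, 6.63, 7.80 and 7.57 in KO VAT, against 8.60, 8.79, 9.26 and 8.96 in KO SAT. The KO VAT pools of day 1 were lowest (-1.77 ± 0.17, adjusted p = 1.78e-05). Cxcl16, the membrane-bound ligand of Cxcr6 and a scavenger receptor, differed by -0.85 ± 0.09 (adjusted p = 5.01e-05).

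Ccl2, the main monocyte attractant, read 10.26, 10.01, 10.37 and 10.33 in KO VAT, against 10.99, 10.68, 10.99 and 11.10 in KO SAT, a 1.62-fold fall (-0.70 ± 0.15, adjusted p = 0.0114). Ccl24, an eotaxin that attracts eosinophils and marks interleukin-4 activation, read 5.29, 5.28, 5.20 and 5.45 in KO VAT, against 6.11, 7.09, 7.97 and 8.17 in KO SAT. The KO SAT pools of day 2 were highest (-2.03 ± 0.35, adjusted p = 0.00319). Cxcl12, a stromal product that retains leukocytes through Cxcr4, differed by -1.55 ± 0.23 (adjusted p = 0.000947).

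Ccl8 and Cxcl13 ran against these. Ccl8, a chemokine of resident macrophages that acts on Ccr8 in mice, read 8.62, 8.57, 9.27 and 9.03 in KO VAT, against 6.02, 6.76, 7.04 and 7.17 in KO SAT. It was 4.35-fold higher without overlap (2.12 ± 0.20, adjusted p = 1.29e-05). Cxcl13, which draws B cells through Cxcr5 and is made by macrophages of body cavities, read 7.59, 7.41, 7.53 and 7.66 in KO VAT, against 5.81, 5.69, 5.84 and 5.91 in KO SAT (1.74 ± 0.17, adjusted p = 2.49e-05). Of 10 chemokine receptors 0 passed by limma and 0 had an unadjusted p under 0.05, at a median of 0.05. Of the 10, 7 averaged under background in both KO groups. Of all 17097 genes 4.32% passed and 2254 had an unadjusted p under 0.05, so 0 of 10 says little about these genes.

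Some genes of antigen presentation were lower in KO VAT. Of 12 MHC class II genes 4 were lower and 0 higher (median -0.20), 5 had a positive difference without passing, and 3 were under background in both groups. Without the day term 2 were lower. H2-Eb1, a class II beta chain, read 9.26, 9.0, 9.79 and 9.61 in KO VAT, against 10.24, 10.58, 10.70 and 10.58 in KO SAT. It was 2.15-fold lower with no overlap (-1.10 ± 0.13, adjusted p = 0.000131). Cd74, the invariant chain that guides class II molecules, read 9.52, 9.42, 10.23 and 9.98 in KO VAT, against 10.46, 10.70, 10.89 and 10.72 in KO SAT (-0.90 ± 0.13, adjusted p = 0.000728). H2-Ab1 and H2-Aa, the chains of the I-A molecule, differed by -0.67 ± 0.11 and -0.55 ± 0.11 (adjusted p = 0.00179 and 0.00845). H2-Aa missed the threshold with its probe set of highest variance (-0.44, adjusted p = 0.405).

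For class I, 4 of 10 members were lower and 0 higher, with a median of -0.35. H2-K1 and H2-D1, which encode class I chains, were not among the 4 (0.04 and 0.11 higher in KO SAT). Psmb8, an immunoproteasome subunit that cuts peptides for class I, read 9.28, 9.09, 9.57 and 9.43 in KO VAT, against 9.92, 9.86, 10.18 and 10.14 in KO SAT (-0.68 ± 0.12, adjusted p = 0.00354). The other two inducible subunits, Psmb9 and Psmb10, differed by -0.58 ± 0.10 and -0.67 ± 0.14 (adjusted p = 0.00366 and 0.00989). Nlrc5, the transactivator of class I genes, differed by -0.74 ± 0.13 (adjusted p = 0.00446), overlapping between days.

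Of 16 costimulation and dendritic cell genes 5 were lower and 0 higher. Cd86, a ligand of CD28 on T cells, read 7.50, 7.13, 8.24 and 7.72 in KO VAT, against 8.31, 8.76, 8.96 and 8.72 in KO SAT. The groups did not overlap, although KO VAT pool 3 lay just below KO SAT pool 1 (-1.04 ± 0.18, adjusted p = 0.00353). Cd274, the inhibitory ligand PD-L1, and Fscn1, an actin bundler of mature dendritic cells, differed by -0.75 ± 0.13 and -0.76 ± 0.15 (adjusted p = 0.00327 and 0.00779).

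**Figure D3:**
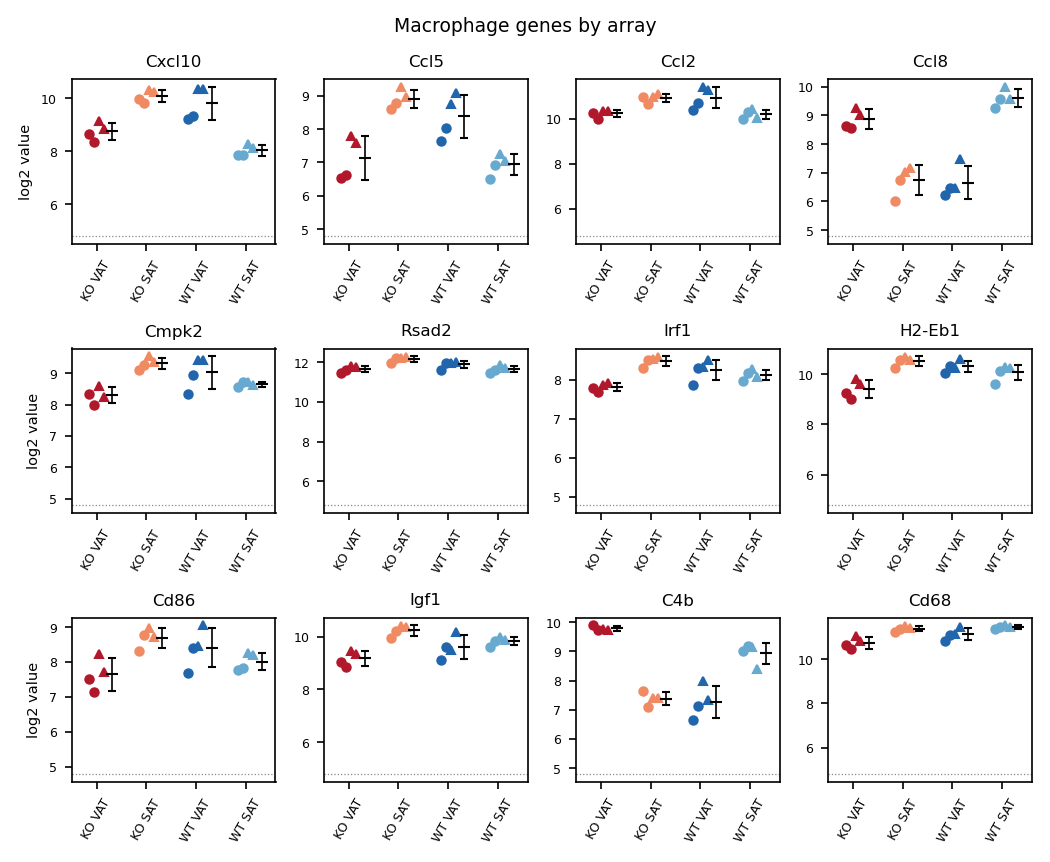
Log2 values of chemokine, interferon, antigen presentation and macrophage genes on each array by group, with circles for day 1, triangles for day 2, bars for the mean and SD of 4 arrays and a dotted line at the background level of 4.78. Cxcl10, Ccl5, Cmpk2, Irf1 and H2-Eb1 are lower in KO VAT than in KO SAT without overlap, and Ccl8 and C4b higher.

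Classical and alternative activation genes did not move as blocks. Of 23 cytokines and enzymes of classical activation 1 was higher and 3 lower, with a median of -0.07, and 1 was lower without the day term. Acod1, which makes itaconate, an inhibitor of succinate dehydrogenase, read 6.80, 6.48, 7.55 and 7.41 in KO VAT, against 7.55, 7.88, 8.34 and 8.68 in KO SAT. KO VAT pool 3 equalled KO SAT pool 1, of another day, and within each day KO VAT was lower (-1.05 ± 0.19, adjusted p = 0.00469). Il6, the acute phase cytokine that stroma also makes, read 6.70, 6.76, 7.55 and 7.21 in KO VAT, against 8.38, 7.98, 8.42 and 8.68 in KO SAT (-1.31 ± 0.30, adjusted p = 0.0209). Its groups did not overlap, but the call was lost with the block (adjusted p = 0.117) and without KO VAT pool 1, 2 or 4 or KO SAT pool 1, 2 or 4 (adjusted p 0.0541 to 0.0746). Tnf and Il1b, the principal early inflammatory cytokines, did not pass (-0.48 ± 0.14 and -0.35 ± 0.15, adjusted p = 0.08 and 0.29). Both passed with the 8 KO arrays alone in the fit (adjusted p = 0.0144 for Tnf and 0.0231 for Il1b), and Tnf without KO SAT pool 1 (adjusted p = 0.044).

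Of 19 prostaglandin and leukotriene genes 2 were higher and 3 lower in KO VAT. Pla2g4a, the phospholipase that frees arachidonic acid, read 8.02, 7.74, 8.00 and 7.79 in KO VAT, against 6.38, 6.67, 6.75 and 7.01 in KO SAT (1.19 ± 0.21, adjusted p = 0.00403). Ptgs2, the inducible cyclooxygenase that uses it, read 9.01, 8.73, 9.15 and 9.02 in KO VAT, against 7.24, 6.53, 7.37 and 8.05 in KO SAT. Both were higher in KO VAT without overlap, but the Ptgs2 call (1.68 ± 0.38, adjusted p = 0.017) was lost with the block (adjusted p = 0.0706) and without KO VAT pool 1 or 2 or KO SAT pool 2 or 3 (adjusted p 0.0509 to 0.0747). The lower genes were Alox5ap, the activating protein of 5-lipoxygenase (-0.77 ± 0.15, adjusted p = 0.00836), Hpgd, which degrades prostaglandins (-0.96 ± 0.26, adjusted p = 0.0494), and Pla2g7, which degrades platelet-activating factor (-0.78 ± 0.20, adjusted p = 0.0403). With the block Hpgd and Pla2g7 were lost (adjusted p = 0.163 and 0.119), Pla2g7 also without any 1 of the 8 KO arrays and Hpgd without any of them but KO SAT pool 3. The 3 became 0 without the day term, and 1 with the block and without KO VAT pool 1, 2 or 4 or KO SAT pool 1, 2 or 4.

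Of 27 alternative activation genes 0 were higher and 4 lower, at a median of -0.11, and 8 of the 27 averaged under background in both groups. The count was 1 with the block, and fell to 1 without KO VAT pool 2 or 4 or KO SAT pool 3 and to 2 without KO VAT pool 1 or KO SAT pool 2. Ccl24, given above, had the greatest fall. Retnla, a secreted product induced by interleukin-4, read 7.26, 7.51, 8.22 and 7.93 in KO VAT, against 7.86, 8.40, 8.58 and 8.28 in KO SAT. Its groups overlapped across days (-0.55 ± 0.14, adjusted p = 0.0374), and the call was lost with the block (adjusted p = 0.0564) and without KO VAT pool 1, 2 or 4 or KO SAT pool 2 or 3 (adjusted p 0.0991 to 0.142). Arg1, the arginase of alternatively activated mouse macrophages, read 8.75, 8.43, 9.13 and 8.90 in KO VAT, against 8.49, 8.56, 8.88 and 8.53 in KO SAT. Mrc1, the mannose receptor CD206, read 7.51, 7.50, 8.08 and 7.80 in KO VAT, against 7.11, 7.66, 8.01 and 7.95 in KO SAT. Both overlapped widely and did not pass (0.19 ± 0.22 and 0.04 ± 0.22, adjusted p = 0.945 and 1).

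Slc7a2, the cationic amino acid transporter that brings arginine into activated macrophages, was the single passing gene of 15 in arginine and polyamine metabolism. It read 6.11, 6.20, 6.75 and 6.72 in KO VAT, against 9.17, 8.64, 8.96 and 9.25 in KO SAT. That was 5.91-fold lower, with all 4 of its probe sets lower (-2.56 ± 0.17, adjusted p = 2.32e-07).

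Tissue-resident macrophage genes were mixed, with 3 of 25 higher and 1 lower at a median of 0.04. C4b, complement component C4, read 9.91, 9.74, 9.77 and 9.74 in KO VAT, against 7.66, 7.09, 7.39 and 7.39 in KO SAT. The groups stood far apart (2.40 ± 0.23, adjusted p = 1.46e-05). Igf1, a growth factor from macrophages and stroma, read 9.04, 8.84, 9.46 and 9.36 in KO VAT, against 9.95, 10.22, 10.40 and 10.37 in KO SAT (-1.06 ± 0.15, adjusted p = 0.000533). Ccl8 is the other member described above.

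Lipid-associated macrophage genes, the program of macrophages that surround dying adipocytes, had 1 of 21 higher and 6 lower, with a median of -0.35. The count of 6 was 3 without KO VAT pool 1, 2 or 4 or KO SAT pool 2 or 3. Cd36, a fatty acid and oxidised lipid receptor, read 8.60 to 9.50 in KO VAT, against 9.70 to 10.05 in KO SAT, without overlap (-0.88 ± 0.15, adjusted p = 0.00349). Lpl, lipoprotein lipase, and Itgax, the integrin CD11c, differed by -0.79 ± 0.15 and -1.04 ± 0.18 (adjusted p = 0.00654 and 0.00273), and Lpl missed the threshold with its probe set of highest variance (-0.98, adjusted p = 0.0515). Trem2, the lipid receptor that drives this program, was lower in 4 of 4 pools without passing (-0.54 ± 0.22, adjusted p = 0.265), and passed with the 8 KO arrays alone in the fit (adjusted p = 0.0116). Ctsk, cathepsin K, ran the other way, at 10.22, 9.94, 10.10 and 10.11 in KO VAT against 9.28, 9.16, 9.46 and 9.53 in KO SAT (0.73 ± 0.14, adjusted p = 0.00507). Spic, a transcription factor of iron-recycling macrophages, differed by -1.02 ± 0.17 (adjusted p = 0.00247).

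The largest rise of all genes was in Akr1c18, an aldo-keto reductase that inactivates progesterone. It read 10.31, 9.99, 10.16 and 10.27 in KO VAT, against 5.47, 5.26, 5.30 and 4.99 in KO SAT. KO VAT was 30.4-fold higher, and the pools of a group lay close together (4.93 ± 0.15, adjusted p = 8.31e-12). Adh7, an alcohol dehydrogenase that oxidises retinol, read 10.10, 9.80, 10.09 and 9.89 in KO VAT, against 6.26, 6.32, 5.86 and 6.0 in KO SAT. It was 14.5-fold higher, the second largest rise (3.86 ± 0.15, adjusted p = 2.11e-10).

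Of the 20 retinoid enzymes and Akr1c genes that include these, 5 were higher and 3 lower. Adh1, which shares that reaction, read 7.76, 7.55, 8.23 and 8.40 in KO VAT, against 6.65, 6.43, 6.68 and 6.22 in KO SAT (1.49 ± 0.19, adjusted p = 0.000224). Cyp26b1, which breaks down retinoic acid, differed by 1.49 ± 0.15 (adjusted p = 2.49e-05). The enzymes that make retinoic acid from retinal went both ways: Aldh1a1 differed by 0.96 ± 0.11 and Aldh1a2 by -1.36 ± 0.21 (adjusted p = 0.000106 and 0.00136). Rdh10, the dehydrogenase of the preceding step, read 6.64, 6.77, 6.71 and 6.66 in KO VAT, against 8.14, 8.13, 8.15 and 8.36 in KO SAT, without overlap (-1.5 ± 0.30, adjusted p = 0.00858).

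Antioxidant genes controlled by Nrf2 leaned to KO VAT, with 4 of 19 higher, 0 lower and a median of 0.43. Nqo1, a quinone reductase, read 9.39, 9.01, 9.37 and 9.24 in KO VAT, against 7.99, 7.61, 8.12 and 8.09 in KO SAT (1.30 ± 0.21, adjusted p = 0.0021). Gsta4, a glutathione transferase for lipid aldehydes, and Srxn1, sulfiredoxin, differed by 1.21 ± 0.21 and 0.57 ± 0.12 (adjusted p = 0.00366 and 0.00936). All 12 of the 19 members whose groups did not overlap were higher, where 5.23% of all genes were higher in that way.

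Genes nearest to succinate and hypoxia gave calls in both directions. Of 23 genes of succinate and the citric acid cycle 1 was higher and 2 lower, where 1.92% of all genes passed higher and 2.39% lower. The 2 became 1 with the block or with any KO array left out. Of 24 respiratory chain genes 0 passed by limma, at a median of 0.07. Among them 0 had an unadjusted p under 0.05, where 2254 of all 17097 genes did. Pcx, pyruvate carboxylase, which feeds the cycle with oxaloacetate, differed by 0.58 ± 0.11 (adjusted p = 0.00582). Of 27 hypoxia and glycolysis genes 2 were higher and 2 lower. Egln3, a prolyl hydroxylase that hypoxia induces, read 6.59, 6.47, 7.13 and 7.02 in KO VAT, against 4.77, 5.33, 5.42 and 5.19 in KO SAT (1.63 ± 0.16, adjusted p = 2.06e-05). Adm, the vasodilator adrenomedullin, read 8.46, 8.20, 8.50 and 8.53 in KO VAT, against 7.35, 6.52, 7.18 and 7.27 in KO SAT (1.34 ± 0.20, adjusted p = 0.000825). Pfkfb3, an activator of glycolysis, was lower (-0.65 ± 0.13, adjusted p = 0.00908). Epas1, also of this list, was 0.83 higher in KO SAT. Hif1a, the factor that succinate is known to stabilise, was higher in 4 of 4 pools but did not pass (0.39 ± 0.14, adjusted p = 0.177). It passed with the 8 KO arrays alone in the fit (adjusted p = 0.0026), after quantile normalization (adjusted p = 0.0109) and with array weights (adjusted p = 0.000705).

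Idi1, isopentenyl-diphosphate isomerase, was the single passing gene of 19 in cholesterol synthesis. It read 6.75, 6.56, 7.69 and 7.55 in KO VAT, against 4.32, 4.21, 4.51 and 4.31 in KO SAT, where it was under background (2.80 ± 0.18, adjusted p = 2.32e-07). Prkg2, a cGMP-dependent kinase, read 7.28, 7.23, 7.11 and 7.51 in KO VAT, against 4.15, 4.20, 4.18 and 4.21 in KO SAT, also under background (3.10 ± 0.14, adjusted p = 1.91e-09). Kif21a, a kinesin, and Rpl39l, a ribosomal protein paralog best known from testis, differed by 2.80 ± 0.21 and 2.27 ± 0.16 (adjusted p = 1.43e-06 and 4.38e-07). Heph, a copper ferroxidase of iron export, and Creld2, a chaperone of the endoplasmic reticulum, differed by 1.04 ± 0.12 and 1.05 ± 0.14 (adjusted p = 9.55e-05 and 0.000533).

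Genes of peritoneal macrophages had 4 of 17 higher and 0 lower in KO VAT, at a median of 0.11. The count was 4 with any KO array left out. Of the 17, 11 had a positive and 6 a negative difference, and 4 averaged under background in both KO groups. Gata6, a transcription factor of the list, was 0.40 higher in KO SAT without passing. Serpinb2, a plasminogen activator inhibitor, read 8.84, 8.38, 8.89 and 8.69 in KO VAT, against 5.96, 4.71, 6.08 and 6.14 in KO SAT, with pool 2 the low one (2.98 ± 0.46, adjusted p = 0.00127). Prg4, lubricin, a product of mesothelium and joint lining too, read 7.43, 7.21, 7.67 and 7.34 in KO VAT, against 4.64, 4.22, 4.43 and 4.91 in KO SAT (2.86 ± 0.23, adjusted p = 1.93e-06). Slpi, an inhibitor of leukocyte proteases, differed by 1.35 ± 0.16 (adjusted p = 0.000158). Cxcl13 is the remaining member. Among monocyte genes, F10, coagulation factor X, differed by -1.16 ± 0.17, and Ace, angiotensin-converting enzyme, by 0.54 ± 0.08 (adjusted p = 0.000815 and 0.00104).

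RNA of stromal cells was plain in both groups, with all 20 fibroblast genes above background. Of these, 4 were higher in KO VAT and 0 lower, with a median of 0.18 and a summed signal of 12.7 to 13.6 in KO VAT and 11 to 13 in KO SAT, in units of 1000. Thbs2, thrombospondin 2, a matricellular protein, read 10.54, 10.42, 10.42 and 10.24 in KO VAT, against 7.91, 6.88, 7.19 and 6.46 in KO SAT. It was 9.82-fold higher (3.30 ± 0.39, adjusted p = 0.000133). Col3a1 and Pcolce, a fibrillar collagen and an enhancer of procollagen cleavage, differed by 1.18 ± 0.19 and 1.13 ± 0.13 (adjusted p = 0.00205 and 0.000103). Mmp3, stromelysin, read 9.74, 9.54, 9.50 and 9.47 in KO VAT, against 7.98, 7.32, 7.04 and 7.69 in KO SAT (2.05 ± 0.25, adjusted p = 0.000173), and 5 of 18 extracellular protease and inhibitor genes were higher with 0 lower.

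Factors through which stroma supports other cells split, with 1 of 13 higher and 4 lower. Il33, an alarmin for type 2 lymphocytes, read 6.41, 6.06, 6.07 and 6.52 in KO VAT, against 4.42, 4.22, 4.69 and 4.38 in KO SAT (1.84 ± 0.19, adjusted p = 2.64e-05). Tnfrsf11b, osteoprotegerin, the decoy receptor of Rankl, read 5.20, 5.01, 5.17 and 5.44 in KO VAT, against 8.85, 7.95, 8.38 and 8.52 in KO SAT, 9.32-fold lower (-3.22 ± 0.29, adjusted p = 8.82e-06). Igf1, Cxcl12 and Il6 are the other three lower members. Clu, clusterin, a secreted chaperone abundant in epithelia of the male tract, differed by -2.19 ± 0.26 (adjusted p = 0.000138).

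Few epithelial genes passed, in both directions. Krt14 and Krt5, keratins of basal epidermis and mammary epithelium, differed by 1.5 ± 0.18 and 1.40 ± 0.25 (adjusted p = 0.000115 and 0.00383). Dsp, desmoplakin of desmosomes, read 7.62, 7.65, 9.27 and 8.46 in KO VAT, against 5.74, 5.91, 6.06 and 5.12 in KO SAT (2.54 ± 0.35, adjusted p = 0.000493). Perp, another desmosome component, read 7.18, 5.88, 8.47 and 7.58 in KO VAT, against 4.63, 4.75, 4.62 and 4.22 in KO SAT, under background there (2.72 ± 0.39, adjusted p = 0.000662). KO VAT pool 3 was the highest for both. Krt18, a keratin of simple epithelia and mesothelium, was lower (-1.25 ± 0.13, adjusted p = 4.32e-05). Of the whole lists, 3 of 18 skin and mammary genes were higher and 1 lower, and 1 of 14 mesothelial genes was higher and 2 lower, with 7 of the 14 under background. The 2 became 1 with the block and without KO VAT pool 1, 2 or 4 or KO SAT pool 1 or 2.

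Endothelial genes had 0 of 20 higher and 3 lower, at a median of -0.48, and the count was 1 without KO VAT pool 1. Aqp1, a water channel of capillaries, passed (-0.89 ± 0.18, adjusted p = 0.00876) but not with the block (adjusted p = 0.0539). Cdh5, VE-cadherin, read 5.59, 7.24, 8.35 and 8.22 in KO VAT, against 9.20, 8.92, 9.33 and 8.77 in KO SAT. Pool 1 of KO VAT was far lower than the rest, and the gene did not pass (-1.70 ± 0.48, adjusted p = 0.0638), although it did with the 8 KO arrays alone in the fit (adjusted p = 0.0234) and with the mean of its probe sets (-1.29, adjusted p = 0.0368). Of 18 adipocyte genes 1 was higher and 2 lower, with 5 positive and 13 negative differences at a median of -0.09. The 2 became 1 without KO VAT pool 1, 2 or 4 or KO SAT pool 2 or 3. Adipoq, adiponectin of adipocytes, was lower in 4 of 4 pools without passing (-0.59 ± 0.16, adjusted p = 0.0559). It passed with the block (adjusted p = 0.0381) and with the 8 KO arrays alone in the fit (adjusted p = 0.00396).

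Lymphocyte genes were low, and those that passed were higher in KO VAT. Of 19 T and NK cell genes 4 were higher and 0 lower, with 7 under background in both groups. Of the 19, 12 had a positive and 7 a negative difference. The count was 2 with the block and 1 without KO VAT pool 1 or 3 or KO SAT pool 3 or 4, and 2 without KO VAT pool 4. Cd3e, of the T cell receptor complex, read 6.38, 6.12, 7.08 and 6.82 in KO VAT, against 5.78, 6.02, 5.90 and 5.47 in KO SAT (0.81 ± 0.21, adjusted p = 0.04). It missed the threshold with the block (adjusted p = 0.102) and without KO VAT pool 1, 3 or 4 or KO SAT pool 1, 3 or 4 (adjusted p 0.0741 to 0.143). Icos, a T cell costimulator, differed by 1.25 ± 0.27 (adjusted p = 0.0144) and missed it without KO VAT pool 1 or 3 or KO SAT pool 3 or 4 (adjusted p 0.0552 to 0.059). Thy1, which fibroblasts carry too, differed by 0.81 ± 0.12 (adjusted p = 0.000976). Ebf1, a B cell factor also made by stroma, was the single passing gene of 15 in the B cell list (0.87 ± 0.15, adjusted p = 0.00268). Without KO SAT pool 2 that count was 2. Of the 15, 11 had a positive and 4 a negative difference. Blnk, of this list, was 0.90 higher in KO SAT without passing.

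Of 13 mast cell and basophil genes 2 were higher, 1 of them with the block, and 10 were under background. Cma1, mast cell chymase, differed by 0.83 ± 0.15 (adjusted p = 0.00507, and 0.0507 after quantile normalization) and Cpa3, a mast cell protease, by 0.51 ± 0.10 (adjusted p = 0.00664, and 0.0585 with the block). Of 8 eosinophil genes 0 passed by limma and 0 had an unadjusted p under 0.05, at a median of -0.03 and with 7 under background. With 4.32% of all genes passed, 0 of 8 says little about these genes. Hbb-b2, a beta globin of red cells whose probe sets may share signal with its near-identical paralogs, read 8.27, 8.88, 8.88 and 9.0 in KO VAT, against 7.05, 7.26, 7.45 and 5.45 in KO SAT. Its groups did not overlap (1.96 ± 0.46, adjusted p = 0.0242), but the call was lost with the block (adjusted p = 0.062) and without KO VAT pool 2, 3 or 4 or KO SAT pool 1, 2 or 4 (adjusted p 0.0547 to 0.0883).

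**Figure D4:**
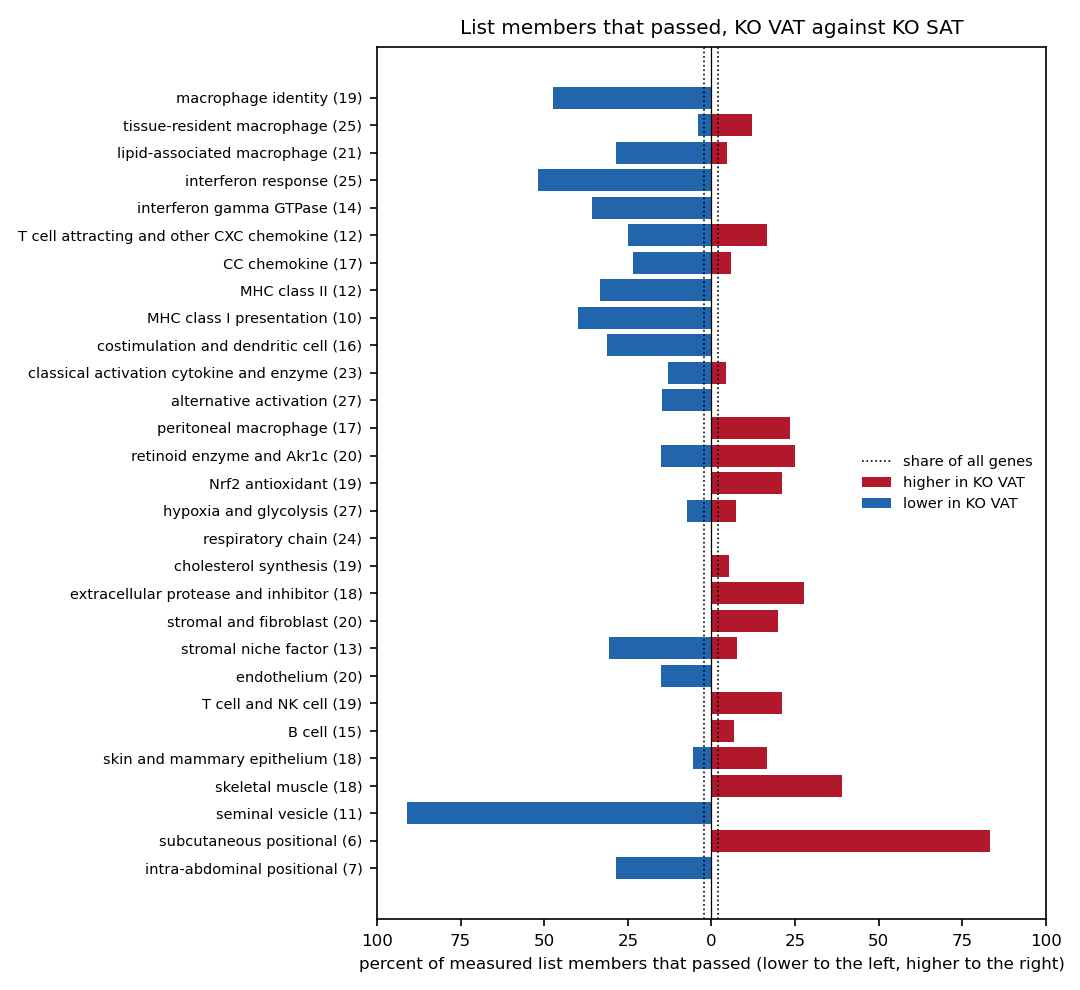
Share of the measured members of each gene list that passed lower (blue, left) or higher (red, right) in KO VAT against KO SAT, in percent, with the number measured in brackets; dotted lines mark the shares of all genes, 2.39% lower and 1.92% higher. Interferon, antigen presentation and macrophage identity lists extend to the left, the subcutaneous positional and skeletal muscle lists to the right, and the respiratory chain list has no bar.

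Setting the depot difference in KO against that in WT asks whether the depots differ in the same way with and without the deletion. The test of the KO difference minus the WT difference passed for 722 genes (4.22%), 359 higher and 363 lower. Of the 738 genes that differed between the KO depots, 406 also passed this test, and 59.3% had a WT difference of the other sign, as 49.9% of all genes did. There were 123 genes that passed in both genotypes, of which 100 ran in opposite directions and 23 in the same one. These directions rest on the KO labels, which the position genes go against. In WT the position genes ran with the labels where they passed, with 1 of 6 subcutaneous genes lower and 0 higher in WT VAT (median -0.38), and 2 of 7 intra-abdominal genes higher and 0 lower (median 0.21). The test was therefore also run with the KO direction turned (KO SAT minus KO VAT, chosen after seeing the data). It then passed for 503 genes (2.94%), 310 higher and 193 lower, with 138 genes shared with the 722. Turning the KO direction swaps the sign counts by definition, so the turned counts are no separate result. They were 40.7% of the 738 genes and 50.1% of all genes with a WT difference of the other sign. Of the 123, 23 then ran in opposite directions and 100 in the same one. The KO and WT arrays are separate samples, so no array is shared between these differences. Arrays of WT VAT correlated at 0.942 to 0.990, less closely than those of the KO groups. Without WT VAT pools 1 and 2, the arrays of smallest interquartile range in that group, 2797 genes passed, an alternative chosen after seeing the data.

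Akr1c18 showed the opposition at its largest. Its difference was 4.93 ± 0.15 in KO and -3.79 in WT, where pools read 4.96, 4.75, 4.79 and 5.14 in WT VAT against 8.79, 8.99, 8.79 and 8.25 in WT SAT. The difference between the genotypes was 8.72 ± 0.21 (adjusted p = 1.58e-12), and -1.13 ± 0.21 with the KO direction turned (adjusted p = 0.00797). Adh7 differed by 3.86 in KO and -2.49 in WT, and Thbs2 by 3.30 in KO and -2.22 in WT (KO minus WT 6.36 ± 0.22 and 5.52 ± 0.56, adjusted p = 9.47e-11 and 2.16e-05). Tnnc2 and Atp2a1, of muscle, differed by 2.13 each in KO and by -4.17 and -3.87 in WT (KO minus WT 6.29 ± 0.42 and 5.99 ± 0.28). Turned, the differences between the genotypes were -1.37 ± 0.22 for Adh7, 2.04 ± 0.42 for Tnnc2 and 1.74 ± 0.28 for Atp2a1 (adjusted p = 0.00343, 0.0163 and 0.0036), and -1.08 ± 0.56 for Thbs2, which did not pass (adjusted p = 0.427).

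Among immune genes, Cxcl10 was lower in KO VAT and higher in WT VAT, where pools read 9.22, 9.32, 10.36 and 10.34 against 7.87, 7.86, 8.28 and 8.14 in WT SAT. The difference between the genotypes was -3.11 ± 0.19 (adjusted p = 9.29e-08). Ccl5 and Ccl2 followed that order, at -1.77 and -0.70 in KO against 1.44 and 0.75 in WT (KO minus WT -3.21 ± 0.24 and -1.45 ± 0.21, adjusted p = 9.8e-07 and 0.000621). Ccl8 had the reverse one, at 2.12 in KO and -2.94 in WT (5.06 ± 0.28, adjusted p = 2.24e-08). Of 25 interferon response genes 0 had a higher and 11 a lower difference in KO than in WT, where 2.10% of all genes passed this test higher and 2.12% lower. Slc7a2 differed by -2.56 in KO and 2.70 in WT (-5.26 ± 0.24, adjusted p = 2.4e-09). With the KO direction turned none of these 5 genes passed (-0.44 for Cxcl10, 0.34 for Ccl5, -0.05 for Ccl2, 0.82 for Ccl8 and -0.14 for Slc7a2, adjusted p 0.16 to 0.958). The 5 are shown here for their opposite signs in KO and WT, so their smaller turned differences are no separate result. Of the 25 interferon response genes 1 passed higher and 0 lower when turned.

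The seminal vesicle genes had no such counterpart in WT, where Svs3a read 3.57 to 3.77 in WT VAT and 3.56 to 4.10 in WT SAT, all under background. Its difference between the genotypes was -5.95 ± 0.17 (adjusted p = 1.05e-11), and 6.18 ± 0.17 turned (adjusted p = 1.23e-11). Svs4 was under background on all WT arrays but WT SAT pool 2, at 7.30. Of the 19 macrophage identity genes, 0 passed this test by limma, where 4.22% of all genes passed. Of the 19, 5 had an unadjusted p under 0.05, at a median of -0.27, and 3 were lower and 0 higher in WT VAT than in WT SAT. Turned, 14 of the 19 passed higher and 0 lower, at a median of 0.89.

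**Figure D5:**
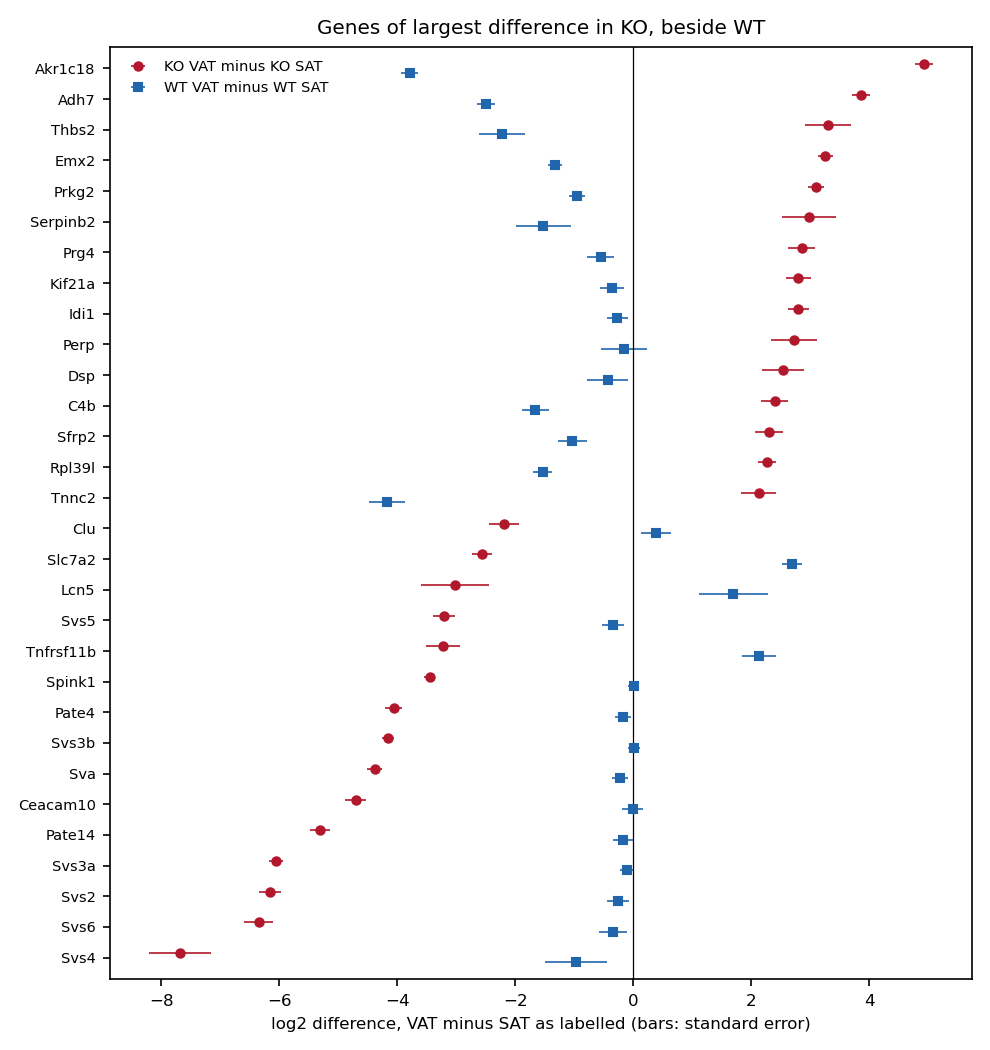
Depot difference (log2 units, VAT minus SAT as labelled, bars for the standard error) in KO (red circles) and in WT (blue squares) for the 15 genes of largest rise and 15 of largest fall in KO. Akr1c18, Adh7, Thbs2, Tnnc2, Slc7a2 and Tnfrsf11b lie on opposite sides of 0 in KO and WT, while most seminal vesicle genes lie near 0 in WT.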

How the data were processed

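The arrays are Affymetrix mouse arrays with perfect-match probes. The authors deposited log2 values per probe set, made by RMA in the affy package (versions not given in the sources used here), per the submitters' processing notes. RMA corrects background and brings all arrays to the same distribution at the probe level. Of 45141 probe sets, 28898 named 1 gene, and each of 17097 genes took its probe set of highest mean over 16 arrays. No filter or further normalization was applied. limma 3.58.1 in R 4.3.3 fitted the 4 groups and day to all arrays, two-sided, and the fit was tested on simulated data. Array data have no read depth, so the number of arrays limits precision.

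Genes are named by rule: up to 15 of largest rise and 15 of largest fall with 1 sign on both days, 5 each way for the genotype difference, members of 50 gene lists with those that passed first, and Sucnr1 and Lyz2. The members and lists were chosen with earlier results of these data known. Deviations of same-numbered pools from their group means correlated at 0.42, 0.575, 0.587 and 0.167 for pools 1 to 4. The numbers also mark the day, so these values include the day, and KO VAT pool 4 reached 0.29 with a KO SAT pool of another number. Within a day the correlation was 0.338 for pools 1 and 2 and -0.00725 for pools 3 and 4. These values do not show whether same-numbered pools pair the depots, and the labels do not state it. The main fit has no block, and the block is given as an alternative wherever it changed the call of a gene described here. It also lowered list counts given without it above. Interferon response genes went from 13 to 11, skeletal muscle from 7 to 5 and lipid-associated from 6 to 4. Other homeobox genes went from 7 to 6. Interferon gamma, costimulation and protease counts went from 5 to 4, and CC chemokine, Nrf2, fibroblast and stromal niche counts from 4 to 3. Tissue-resident, classical activation and endothelial counts went from 3 to 2. Promoter sequences are from RefSeq.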

Additional observations from a re-analysis of the deposited data

Results flagged for a closer look

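The depot difference differed between KO and WT for 722 genes by the test of that difference, and for all 31 genes named for the size of their difference. Those with a higher difference in KO (KO minus WT, log2 units) were Akr1c18 at 8.72, Adh7 at 6.36, Tnnc2 at 6.29, Atp2a1 at 5.99, Thbs2 at 5.52, Emx2 at 4.59, Serpinb2 at 4.50, C4b at 4.06 and Prkg2 at 4.05. Rpl39l followed at 3.81, Prg4 at 3.41, Sfrp2 at 3.33, Kif21a at 3.16, Idi1 at 3.08, Dsp at 2.97 and Perp at 2.89. Those with a lower difference in KO were Svs4 at -6.71, Svs6 at -6.02, Svs3a at -5.95, Svs2 at -5.91, Tnfrsf11b at -5.36, Slc7a2 at -5.26, Pate14 at -5.14, Lcn5 at -4.72 and Ceacam10 at -4.69. Svs3b followed at -4.18, Sva at -4.16, Pate4 at -3.88, Spink1 at -3.46, Svs5 at -2.87 and Clu at -2.58. Of the 31, 22 had a WT difference of the other sign, and 12 passed in WT. With the KO direction turned, chosen after seeing the data because position genes go against the KO labels, 503 genes and 23 of the 31 passed. Turning leaves 9 of the 31 with a WT difference of the other sign, which follows from the 22 and is no separate result.

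In 8 of 272 pairs of gene and KO group, 1 array stood apart from the other 3 by a gap that took up most of the group's range, past the critical value of Dixon's test; chance gives about 1 in 20. Hbb-b2 was low at 8.27 in KO VAT pool 1. KO SAT pool 1 was low for Cd36 at 9.70, H2-Aa at 10.43 and Rsad2 at 11.95, and KO SAT pool 2 was low for Serpinb2 at 4.71 and high for Krt5 at 6.26. Slpi was high at 8.48 in KO SAT pool 3, and Rdh10 at 8.36 in KO SAT pool 4.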

How the results depend on the processing

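The 738 genes that differed between KO VAT and KO SAT became 422 without the day term, 262 on day 1 alone, 199 on day 2 alone, 2047 with the KO arrays alone, 2260 with the KO arrays alone and the replicate block, 1110 after quantile normalization, 2203 with array weights, 1968 with the interquartile range as a term and 1262 without WT VAT pools 1 and 2, the last chosen after seeing the data. The count was 461 to 562 with 1 KO array left out. The 722 genes of the genotype difference became 455, 330 and 1904 without the day term and on day 1 and day 2 alone, 1209 with weights, 1694 with the interquartile range term and 2797 without WT VAT pools 1 and 2, and 546 to 611 with 1 KO array left out. Higher calls were 44.6% of the first count, against 56.4% without the day term and 66.8% on day 2 alone. They were 49.7% of the second, against 71.2% on day 1 alone, 38.7% on day 2 alone, 64% with the interquartile range term and 39% without WT VAT pools 1 and 2. With the replicate block the counts were 493 and 489, and of 136 genes examined (130 with the lowest 40% of probe sets removed) the block ended 13 calls and added 1, each given above, and changed no other call. Dropping the day term ended 26 and added 0, and day 1 and day 2 alone ended 49 and 58. The 8 KO arrays alone, with or without the block, and array weights added 8 each and ended 0: Adipoq, Cdh5, Hif1a, Hoxc9, Il1b, Lyz2, Tnf and Trem2. The interquartile range term added 7, all but Trem2, and leaving out WT VAT pools 1 and 2 added 5. Turning the KO direction gave 503 genes in the genotype test, 61.6% of them higher. Of those genes Mrc1 changed sign on day 2 alone (-0.04) and ran from -0.06 to 0.14 with 1 array left out, negative without KO SAT replicate 1. Sucnr1, under background, reached 0.00 without KO VAT replicate 4. The cause of these changes was not tested. Precision is limited by 4 pools a group and, for genes under background, by dim signal.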
